A study of Mus musculus with 103 samples.

Results

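Bulk RNA sequencing libraries of muscle stem cells from 3 old mice were compared with those from 3 young mice across the whole transcriptome. Genes entered when their label in the deposited bulk table held an Ensembl gene identifier and their mean over these 6 libraries was 5 TPM or more (TPM give each transcript as its length-corrected share of a library), which left 11208 of 43283 identified genes. Each library came from 1 mouse per the design text. All mice were untreated C57BL/6 animals, aged 24 months in the old group. The labels of the young group disagree with each other, giving 3 months in the age field and 2 months in the description. The same table holds libraries of 2 middle-aged mice, and 95 single-cell wells of the series are in another table.

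The labels call the material muscle stem cells, the design text calls it myoblasts, and the protocol describes culture with fibroblast growth factor 2. Whether RNA was taken before or after that culture is not given in the sources used here, nor are the sort gate and the sex of the mice. Muscle stem cells, also called satellite cells, sit between a muscle fibre and the basal lamina around it. They rest in adult muscle, enter the cell cycle after injury and make the myoblasts that rebuild fibres. Regeneration slows in old animals, and the resting state, adhesion to the niche, ribosome production and the cytoskeleton of these cells have all been studied in that setting. The genes described here lie mainly outside the myogenic, cell cycle and stress lists usually shown for them.

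The labelled cell type was checked against its markers. All 12 muscle stem cell markers passed the level filter, and their summed TPM was 2690 to 3202 in the young and 1769 to 2583 in the old libraries. Of these 12 genes 3 were higher on average in old libraries, and the median log2 difference was -0.32. Without overlap between the ages, 2 lay below (Chodl and Pax7) and 1 above (Sdc4), while over all 11208 genes 5.42% lay below and 7.77% above. Chodl, also on the tenocyte list, had the highest mean of the 12. It was at 758, 819 and 1142 TPM in the young and 351, 628 and 496 TPM in the old libraries. Young library 1 had a marker sum of 2690 TPM, and old libraries 2 and 3 had 2583 and 2511 TPM. These gaps are smaller than the gaps in Chodl between the same libraries, so the separation of the sums by age depends on Chodl. Markers of Schwann cells, the glia of peripheral nerve, were present in every library at higher sums in the old group. Their summed TPM was 861, 1935 and 1429 in the young and 1993, 6449 and 1834 in the old libraries, so that young library 2 lay above old library 3. All 13 that passed the filter were higher on average in old libraries, 9 of them without overlap between the ages, and none of the 15 on the list was at 0 in all 6 libraries. Among the Schwann cell markers Pmp22 had the highest level. It was at 729, 1723 and 1234 TPM in the young and 1425, 5013 and 1291 TPM in the old libraries. The Schwann cell sums were not taken without Pmp22. Fibroblast markers summed to 1164 to 1588 TPM in the young mice against 1528 to 2167 TPM in old libraries. Of 11 that passed the filter 8 were higher on average, with 4 above and 1 below without overlap. Of 3 tenocyte markers past the filter, Fmod and Thbs4 lay above and Chodl below. Fmod was at 1.80 to 4.74 TPM in the young and 15.8 to 43.2 TPM in the old libraries, and Thbs4 at 6.45 to 9.24 and 20.7 to 56.5 TPM. Of 9 smooth muscle and pericyte markers past the filter, 5 were higher on average in old libraries, 3 above and 1 below without overlap. The endothelial markers Cldn5, Egfl7 and Tie1 and the macrophage markers C1qa, Fcer1g and Tyrobp were listed at 0 in all 6 libraries, while other members of both lists were detected. The 4 endothelial and 2 macrophage markers that passed the filter were higher on average in old libraries, all with overlap between the ages, for example Cdh5 at 4.88, 7.68 and 4.18 TPM in the young and 15.3, 6.17 and 23.05 TPM in the old libraries, and Lyz2 at 21.5, 17.8 and 4.88 against 35.6, 4.78 and 52.2 TPM. The summed markers were 33.01 to 48.4 and 44.1 to 72.5 TPM for endothelial cells, and 8.69 to 38.5 and 20.8 to 57.2 TPM for macrophages, in young and old libraries. In bulk libraries, a different number of cells of a type and a different amount of RNA per cell cannot be told apart.

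**Figure D1:**
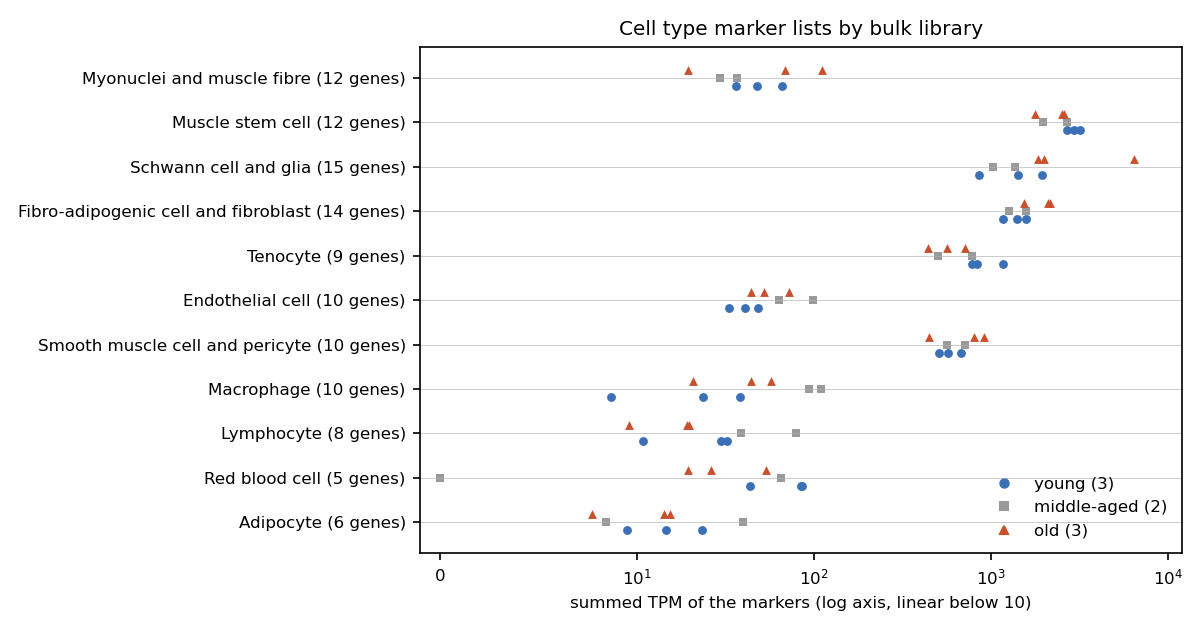
Summed TPM of the marker genes of 11 cell types (vertical axis) in each bulk library (horizontal log axis, linear below 10 TPM), with 1 symbol per library. The muscle stem cell sums of the 3 old libraries lay below those of the 3 young libraries, and old library 2 had the highest Schwann cell sum, 6449 TPM. The stem cell sums include Chodl, also counted among tenocyte markers, at 758 to 1142 TPM in young and 351 to 628 TPM in old libraries. The separation of these sums by age depends on Chodl.

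Mitochondrially encoded transcripts made up 37.7 to 39.9% of TPM in the young mice against 35.3 to 46.5% in old libraries, highest in old library 1. Between 12849 and 17114 genes per library reached 1 TPM, fewest in young library 2. The old libraries had 14262 to 17114. Spike-in RNA was at 0 TPM in the 3 young libraries and in old library 2, and at 15.3 and 13.2 TPM in old libraries 1 and 3. Xist was detected, and 4 Y-linked genes were listed at 0, in every library. At the edge of the level filter, 2200002D01Rik had young values of 0, 0 and 8.46 TPM and old values of 0, 19.3 and 2.26 TPM, just inside it. Cyp4v3, just under it, had 3.84, 8.06 and 4.39 TPM in the young mice against 5.35, 2.88 and 5.46 TPM in old libraries.

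No gene passed the test between old and young mice after adjustment. In limma with Benjamini-Hochberg adjustment over the 11208 genes, 0 genes (0.0%) had an adjusted p under 0.05, and the smallest adjusted p was 0.319. At an unadjusted p under 0.05, limma counted 525 genes (4.68%) as higher and 341 (3.04%) as lower in old libraries. The 3 old libraries all lay above the 3 young ones for 871 genes (7.77%), and all below for 607 (5.42%). The median log2 difference over all genes, old minus young on the log2(TPM + 1) scale, was 0.06. Every difference given from here on is on that scale, and every level is in TPM with the libraries in the order 1, 2, 3. For a single gene, an exact two-sided permutation test of 3 against 3 libraries cannot give a p below 0.1.

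The spread between mice of 1 age was wide, above all for genes of low level. The correlation of log2(TPM + 1) over the tested genes was 0.521 to 0.589 between young libraries and 0.675 to 0.698 between old ones. Between young and old libraries it was 0.541 to 0.62, so young libraries were no more alike than libraries of different age. The median standard deviation (SD) within an age was 0.81 log2 units over all genes. It was 1.1 for genes with a mean of 5 to 20 TPM, 0.6 from 20 to 100 TPM, and 0.44 at 100 TPM or more. Among the 723 genes of the highest class, 8.99% lay above and 9.96% below without overlap. Of the 9179 protein-coding genes 8.74% lay above and 5.32% below, against 3.45% and 5.23% of the 1071 pseudogenes. Exact zeros were frequent: 7611 of the 11208 genes were above 0 in all 6 libraries, 282 were listed at 0 in all young and 361 at 0 in all old libraries.

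**Figure D2:**
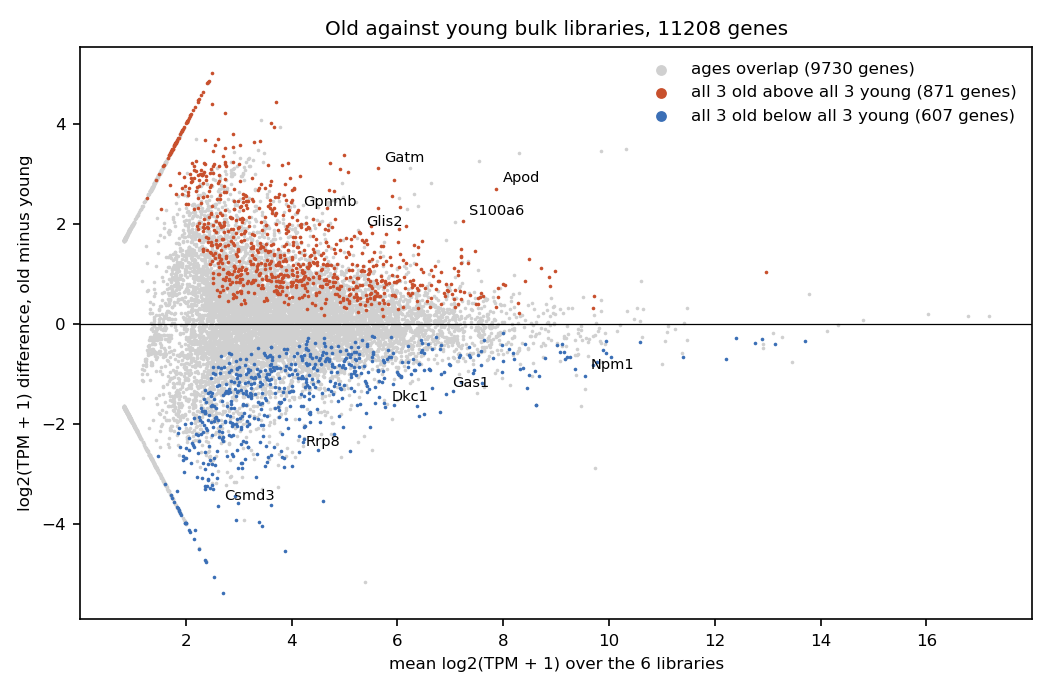
Difference between old and young libraries in log2(TPM + 1) (vertical axis) against the mean log2(TPM + 1) over the 6 libraries (horizontal axis), with 1 point per gene for 11208 genes. The 871 genes with all old above all young libraries and the 607 with all below are coloured, and the scatter narrows as the level increases. The straight edges at the left are genes listed at 0 in all libraries of 1 age.

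The genes described first are the 15 higher and the 15 lower in old mice with the smallest limma p among those above 0 in all 6 libraries whose ages did not overlap. Their differences are therefore a description of the strongest separations in these libraries. For all 30 genes the adjusted p in limma (Benjamini-Hochberg) was 0.424, and the unadjusted p lay between 0.000702 and 0.00356. The plot of these 30 genes shows every library, the middle-aged ones included.

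**Figure D3:**
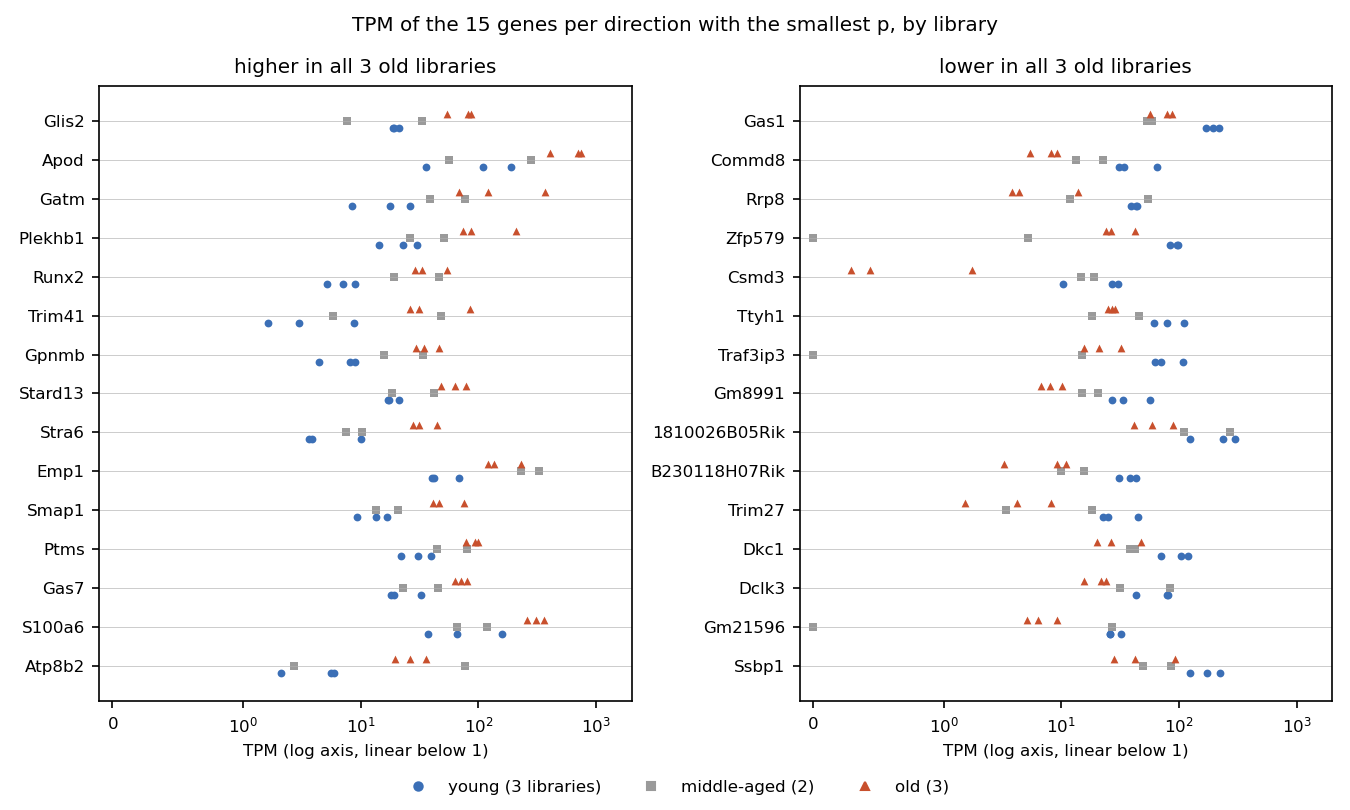
TPM (horizontal log axis, linear below 1) of 15 genes higher and 15 genes lower in old libraries (vertical axis), with 1 symbol per library for 3 young, 2 middle-aged and 3 old mice. By the choice of genes no old symbol overlaps the young ones; old library 2 stands to the right for Gatm (366 TPM) and Plekhb1 (209 TPM).

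Transcription factors were among the higher genes. Glis2 (chr16:4594713-4624924 in mm10, as all positions of genes here), a zinc finger factor linked to primary cilia, was at 18.6, 19.2 and 21.1 TPM in the young mice against 81.4, 54.1 and 86.2 TPM in old mice. The young libraries were tightly grouped and the lowest old one was well above them (difference 1.83, 95% interval 1.01 to 2.65). The middle-aged libraries lay apart at 32.9 and 7.61 TPM, the second below every young one. Runx2 (chr17:44495987-44814797), the master regulator of bone formation, was at 8.93, 5.12 and 7.12 TPM in the young mice against 53.9, 32.8 and 29.1 TPM in old mice. Its difference was 2.27 (1.18 to 3.37), and the middle-aged libraries had 45.7 and 19.03 TPM, above all young ones. Glis2 overlaps Pam16 on the other strand, and Runx2 overlaps several annotated antisense transcripts and Supt3. Strandedness is not given in the sources used here, so reads of such partners cannot be told apart.

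Membrane and secreted proteins formed another group. Apod, a secreted lipocalin that carries small lipids, was at 188, 35.9 and 110.2 TPM in the young mice against 407 to 739 TPM in old mice. All 3 old values lay beyond the highest young one, although young values themselves spanned a wide range (difference 2.70, 1.44 to 3.95). Gpnmb, a transmembrane glycoprotein of lysosomes and melanosomes, was at 8.99, 8.07 and 4.40 TPM in the young mice against 34.3, 29.6 and 46.2 TPM in old mice (2.23, 1.13 to 3.33). Emp1, a small membrane protein of the family that includes Pmp22, was at 40.2, 42.1 and 68.9 TPM in the young mice against 230.2, 136 and 121 TPM in old mice (1.66, 0.81 to 2.50). Both middle-aged libraries, at 329 and 232 TPM, were at or above the highest old value of Emp1. Stra6, the cell surface receptor that takes up retinol, was at 3.65, 3.82 and 9.99 TPM in the young mice against 31.1, 27.9 and 44.8 TPM in old mice (2.48, 1.23 to 3.72). Its middle-aged values of 10.2 and 7.47 TPM were near the young ones, and its locus overlaps Ccdc33.

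Several higher genes are known from nerve, and the Schwann cell sums given above are to be read beside them. Gatm, which catalyses the first step of creatine synthesis, was at 8.42, 17.6 and 26.4 TPM in the young mice against 68.4, 366 and 119 TPM in old mice. Plekhb1, a pleckstrin homology domain protein, was at 14.3, 29.8 and 22.8 TPM in the young mice against 73.7, 209 and 87.1 TPM in old mice. Both were highest in old library 2, the library with the largest Schwann cell sum. Without that library the difference of Gatm was 2.44 in place of 3.11, and that of Plekhb1 was 1.86 in place of 2.32.

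Of the genes averaging 20 TPM or more with the widest gaps, 3 more were of that kind. Gldn, which encodes gliomedin of the node of Ranvier, was at 2.07, 0 and 5.93 TPM in the young mice against 20.8, 85.6 and 20.2 TPM in old mice. Ncmap, a protein of non-compact myelin, was at 0, 12.4 and 8.36 TPM in the young mice against 37.98, 122 and 20.1 TPM in old mice. Pcp4l1, a small relative of Purkinje cell protein 4, was at 6.66, 6.93 and 0 TPM in the young mice against 27.7, 55.8 and 26.4 TPM in old mice. All 3 peaked in old library 2, as the Schwann cell sum did, and the part of these cells in the differences was not tested. Apod, also made by nerve fibroblasts and glia, was lowest among the old mice in library 2.

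Genes of the cytoskeleton, of trafficking and of protein turnover completed the higher set. Stard13, a protein with a lipid-binding START domain, was at 20.97, 16.99 and 17.5 TPM in the young mice against 77.6, 48.5 and 62.7 TPM in old mice (1.69, 0.85 to 2.53). Gas7, an adaptor that binds actin and membrane, was at 19.3, 17.9 and 32.2 TPM in the young mice against 79.6, 71.7 and 63.3 TPM in old mice (1.63, 0.78 to 2.48). S100a6, a calcium-binding protein, was the most abundant of these, at 160, 65.7 and 37.0 TPM in the young mice against 358, 310 and 256 TPM in old mice (2.05, 0.94 to 3.15). Its young values differed more among themselves than its old values did. Smap1, an activator of the GTPase activity of Arf proteins, had 9.21 to 16.8 TPM in the young mice against 40.9 to 75.1 TPM in old mice. Ptms, which encodes the acidic protein parathymosin, had 21.9 to 39.8 TPM in the young mice against 79.1 to 99.0 TPM in old mice. Atp8b2, a phospholipid flippase, had 2.10 to 5.91 TPM in the young mice against 19.7 to 35.7 TPM in old mice, and its middle-aged libraries lay apart at 77.1 and 2.69 TPM. Trim41, a RING finger ubiquitin ligase, had 1.63 to 8.75 TPM in the young mice against 26.2 to 84.9 TPM in old mice, at a locus that overlaps the abundant gene Rack1.

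Lower genes began with a Hedgehog receptor component. Gas1 (chr13:60174405-60177365), a co-receptor that binds Hedgehog ligands, was at 170, 196 and 219 TPM in the young mice against 57.1, 78.7 and 86.5 TPM in old mice. The ages were far apart compared with their spread (difference -1.40, -2.07 to -0.73), and the middle-aged mice were at the old level with 53.9 and 59.2 TPM. In the wells of the young mouse, Gas1 was found at 1 TPM or more in 33 of 64.

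Of the lower genes, 3 act on ribosomal RNA or mitochondrial DNA. Rrp8, a nucleolar methyltransferase of ribosomal RNA, was at 42.9, 43.9 and 39.3 TPM in the young mice against 3.82, 4.35 and 13.8 TPM in old mice (-2.57, -3.82 to -1.32). Its middle-aged values of 11.9 and 54.2 TPM were on both sides of the gap, and its locus overlaps Ilk on the other strand. Dkc1, the pseudouridine synthase of ribosomal RNA that also belongs to telomerase, was at 71.1, 121 and 103 TPM in the young mice against 26.4, 20.3 and 47.5 TPM in old mice (-1.67, -2.61 to -0.73). Ssbp1, which binds single-stranded mitochondrial DNA, was at 125, 173 and 225 TPM in the young mice against 92.0, 27.8 and 42.03 TPM in old mice (-1.81, -2.85 to -0.77).

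Commd8, a subunit of the Commander complex for endosomal sorting, had 30.9 to 65.6 TPM in the young mice against 5.41 to 9.22 TPM in old mice. Traf3ip3, a binding partner of the adaptor Traf3, had 63.3 to 108 TPM in the young mice against 15.5 to 32.1 TPM in old mice. Trim27, a RING finger ubiquitin and SUMO ligase, had 22.5 to 44.6 TPM in the young mice against 1.51 to 8.17 TPM in old mice. Zfp579, a zinc finger protein, had 83.2 to 97.7 TPM in the young mice against 23.9 to 42.2 TPM in old mice, while its middle-aged libraries had less than either age with 5.17 and 0 TPM. Middle-aged values of Zfp579 thus did not lie between those of the other ages.

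Genes best known from the nervous system were found on the lower side as well. Csmd3, a very large membrane protein with CUB and sushi domains, was at 30.6, 10.3 and 26.98 TPM in the young mice against 1.74, 0.29 and 0.44 TPM in old mice (-3.65, -5.49 to -1.80). It was at 14.6 and 19.2 TPM in middle-aged mice, within the young range. Ttyh1, a membrane protein of the tweety family, had 61.95 to 111 TPM in the young mice against 25.01 to 28.7 TPM in old mice. Dclk3, a kinase of the doublecortin-like family, had 42.8 to 80.8 TPM in the young mice against 15.7 to 24.1 TPM in old mice. The old values of Csmd3, Ttyh1 and Dclk3 all lay below their young values. The part of Schwann cells in these differences was not tested.

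The remaining lower genes were B230118H07Rik and transcripts whose counting is uncertain. B230118H07Rik, a protein-coding gene that spans the Rag1 and Rag2 loci, had 30.9 to 42.8 TPM in the young mice against 3.28 to 11.1 TPM in old mice. The noncoding 1810026B05Rik, which overlaps Chd2, had 124 to 297 TPM in the young mice against 41.6 to 88.6 TPM in old mice. The processed pseudogenes Gm8991 and Gm21596 had 27.1 to 56.7 and 25.8 to 32.2 TPM in the young mice against 6.69 to 10.2 and 5.13 to 9.22 TPM in old mice. Reads of a processed pseudogene may come from its parent gene, so these levels cannot be assigned with certainty.

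The widest gaps by size included genes at 0 in single libraries. Adamtsl5, a secreted protein of the extracellular matrix, was at 2.65, 0 and 0 TPM in the young mice against 104, 30.0 and 6.34 TPM in old mice. Anxa3, a calcium-dependent membrane-binding protein, was at 40.7, 0 and 22.1 TPM in the young mice against 128, 46.8 and 170 TPM in old mice. Old values of Adamtsl5 spread over a wide range, and for Anxa3 the lowest old value was close to the highest young one. Hibch, an enzyme of valine breakdown, was at 58.1, 12.7 and 96.2 TPM in the young mice against 4.70, 0 and 6.37 TPM in old mice. Trmt112, the common partner of several RNA and protein methyltransferases, was at 30.2, 40.8 and 33.5 TPM in the young mice against 8.22, 0 and 18.2 TPM in old mice. In both cases 1 old library held no signal. The Olfr1004-ps1 pseudogene was listed at 0 in all old and both middle-aged libraries and at 51.6, 67.9 and 19.2 TPM in young ones. Besides Gatm and Trim41, the other members of this group were Gm10039, Gm16022 and Gm11632 on the higher side and Gm26362, Gm37383, Gm28724, Llph-ps2, Gm19585, Gm14410 and Gm37609 on the lower side, each at 0 in at least 1 library.

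Gene lists for 38 processes outside the usual markers were then described by counts. Among lists with 10 or more tested members, 9 of the 10 with the largest absolute median are given in full, and the plot by gene list sets their shares beside those of all genes. From each, the 3 members with the smallest p are described, and other members, mostly without overlap between the ages, were named after their values were seen. Every share of a list given below is to be read beside those of all 11208 genes, 7.77% above and 5.42% below. No member of any list had an adjusted p under 0.05 in limma (Benjamini-Hochberg); the smallest was 0.424.

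**Figure D4:**
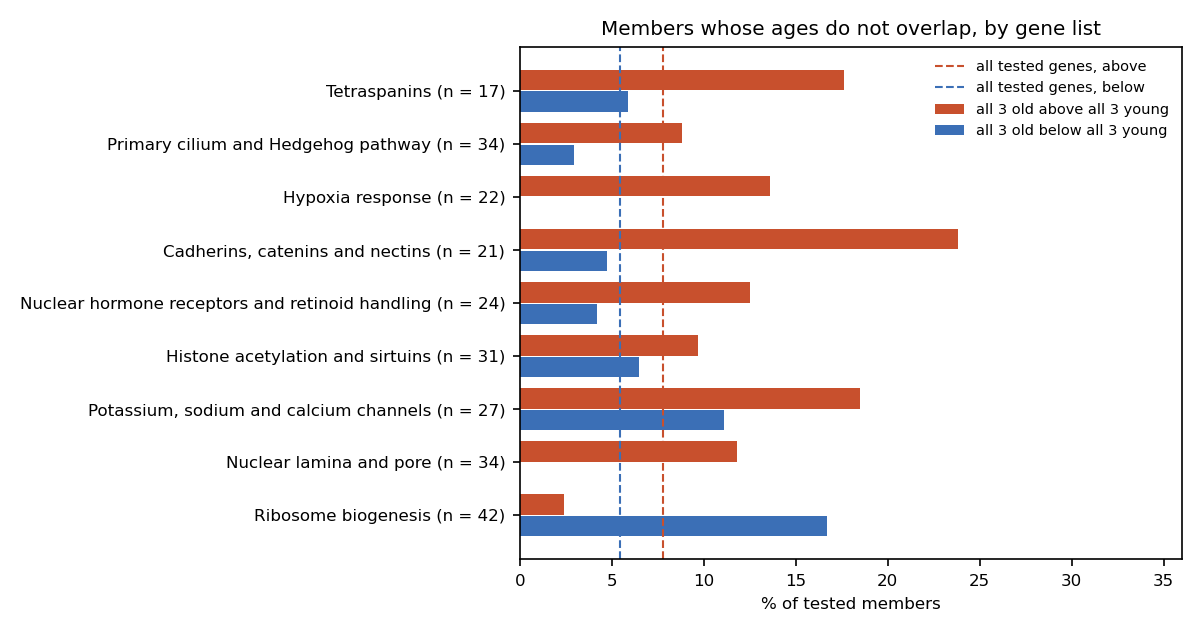
Percent of tested members (horizontal axis) with all 3 old libraries above or all 3 below the 3 young ones, for 9 of the 10 gene lists with the largest absolute median difference among those with 10 or more tested members (vertical axis, with the number tested). Dashed lines mark the shares of all 11208 genes, 7.77% above and 5.42% below; ribosome biogenesis had 2.38% above and 16.7% below.

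Ribosome biogenesis was the list with the most negative median. Of its 42 tested genes 26 were lower and 16 higher on average in old mice, with a median of -0.40 against 0.06 over all genes. Leaving out young library 1 or old library 2 gave a median of -0.19, and leaving out young library 2 gave -0.23. In this list 7 genes (16.7%, background 5.42%) lay below without overlap and 1 (2.38%, background 7.77%) above. Dkc1, Npm1, Utp6 and Rrp1b were lower at an unadjusted limma p under 0.05, and no member was higher at that level; the values of Rrp1b overlapped between the ages. Npm1, which encodes the abundant nucleolar chaperone nucleophosmin, was at 670, 1230 and 1459 TPM in the young mice against 516, 547 and 493 TPM in old mice (difference -1.04, -1.76 to -0.31). Old values were close together and young library 1 was the nearest to them; middle-aged values were 1172 and 472 TPM. Utp6, a component of the small subunit processome, was at 39.9, 50.1 and 28.7 TPM in the young mice against 11.5, 16.2 and 25.3 TPM in old mice. The others of the 7 were Polr1b of RNA polymerase I (-1.01), Pes1 of the large subunit pathway (-1.01), Wdr43 of the small subunit processome (-0.51) and Ncl, nucleolin (-0.19). Gnl2, a nucleolar GTPase, was the 1 gene above, at 25.6, 21.3 and 9.70 TPM in the young mice against 28.3, 34.5 and 37.6 TPM in old mice.

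Promoter sequence was examined for this list because 7 of its members lay below without overlap and many growth-related genes carry the E-box CACGTG, a palindrome that reads the same on both strands and is bound by Myc and related factors. In RefSeq windows (GRCm38.p6) from 250 bases before to 50 bases after the start site, 9 of the 35 list members with a window held this E-box (25.7%), against 856 of 7321 tested genes with a window (11.7%) and 2187 of 27025 genes in all (8.09%). In the 250 bases before the start alone, the shares were 8.57% of the list and 9.81% of the tested genes, so the higher share came from the bases just after the start. Of the 7 genes that lay below, 5 had a window, and Pes1 and Wdr43 held the E-box while Dkc1, Polr1b and Ncl did not. The matches are descriptions of sequence and no binding was measured. Shown are the windows of Pes1 (chr11:3963725-3964004), Wdr43 (chr17:71615965-71616244) and, for comparison, the gene of the list farthest below 0, Dkc1 (chrX:75095604-75095883). All are on the plus strand, from 250 bases before to 30 after the start, 5′ to 3′, with the E-box in capitals; it begins at base 3 after the start in Pes1 and at base 18 in Wdr43.
Pes1: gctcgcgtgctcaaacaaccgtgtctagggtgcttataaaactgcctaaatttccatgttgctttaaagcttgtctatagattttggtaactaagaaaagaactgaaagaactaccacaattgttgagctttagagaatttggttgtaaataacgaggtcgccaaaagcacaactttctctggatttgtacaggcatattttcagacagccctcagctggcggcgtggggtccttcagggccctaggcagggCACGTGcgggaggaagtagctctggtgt
Wdr43: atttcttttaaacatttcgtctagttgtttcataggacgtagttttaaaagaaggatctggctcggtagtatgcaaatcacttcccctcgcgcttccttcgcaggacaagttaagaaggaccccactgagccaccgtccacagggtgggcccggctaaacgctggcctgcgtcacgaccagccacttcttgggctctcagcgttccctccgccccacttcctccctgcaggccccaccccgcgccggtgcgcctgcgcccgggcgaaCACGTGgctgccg
Dkc1: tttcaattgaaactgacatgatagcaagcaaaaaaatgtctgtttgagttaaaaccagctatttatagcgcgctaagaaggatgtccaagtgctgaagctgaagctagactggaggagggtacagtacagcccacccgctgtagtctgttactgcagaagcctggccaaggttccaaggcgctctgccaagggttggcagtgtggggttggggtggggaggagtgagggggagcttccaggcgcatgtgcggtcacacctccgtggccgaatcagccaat

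**Figure D5:**
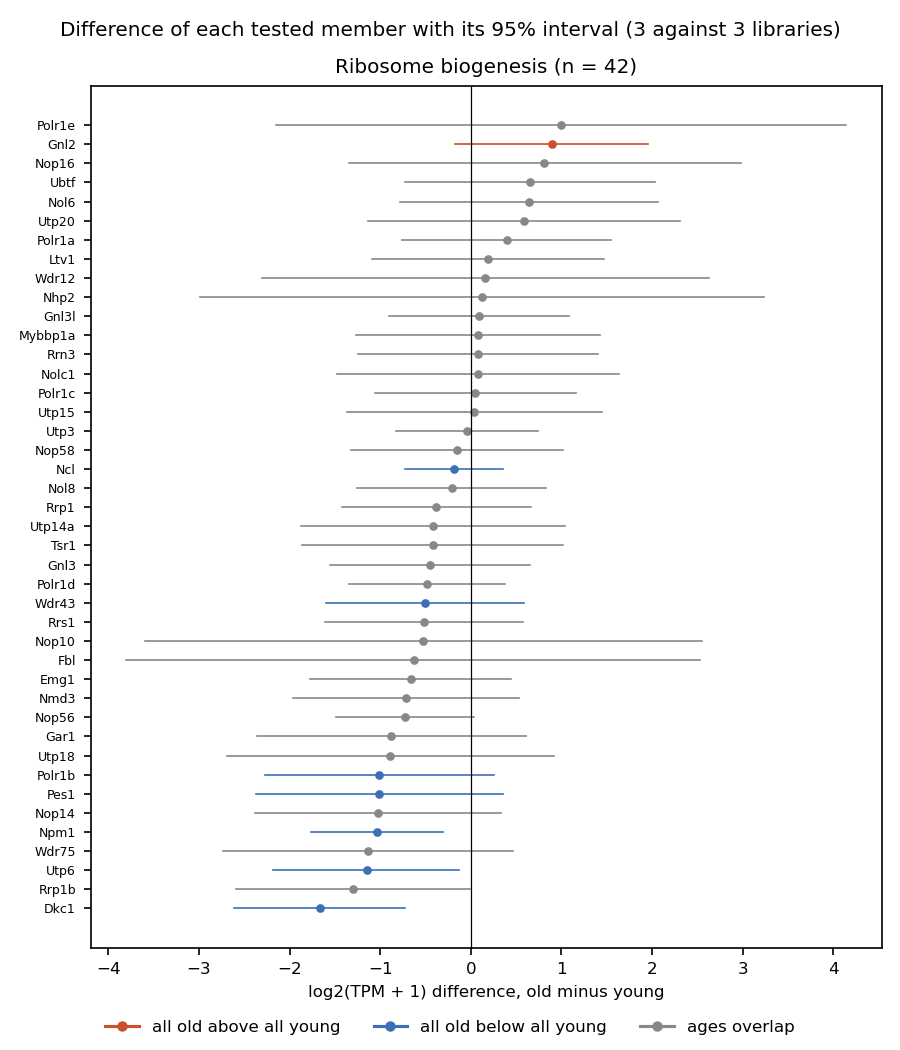
Difference in log2(TPM + 1), old minus young (horizontal axis), with its 95% interval from limma for each of the 42 tested ribosome biogenesis genes (vertical axis). Coloured genes have ages that do not overlap; 26 of 42 genes lie left of 0, and many intervals cross 0.

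Genes of cell surface contact leaned higher. Among tetraspanins, membrane proteins that organise receptors and integrins into domains, 13 of 17 were higher on average (median 0.47, but 0.24 without young library 3), with 3 above (17.6%) and 1 below (5.88%). Tspan17 was at 0, 6.89 and 0 TPM in the young mice against 13.6, 43.8 and 31.2 TPM in old mice, and Tspan15 was at 2.84 to 4.65 TPM in the young mice against 13.2 to 15.8 TPM in old mice. Tspan9 was at 0, 0 and 2.21 TPM in the young mice against 24.4, 8.65 and 10.6 TPM in old mice. Tspan7, a better detected member, lay below, at 57.04 to 98.9 TPM in the young mice against 34.8 to 50.3 TPM in old mice. Among cadherins, catenins and nectins, 15 of 21 were higher (median 0.37), with 5 above (23.8%) and 1 below (4.76%). Cdh11, a cadherin of mesenchymal cells, was at 5.75, 9.65 and 7.89 TPM in the young mice against 33.6, 18.1 and 25.3 TPM in old mice. Cdh1 (E-cadherin) stayed low, at 1.09 to 3.22 TPM in the young mice against 4.56 to 18.4 TPM in old mice, highest in old library 2. Ctnna1 and Ctnnd1, catenins that bind cadherin tails, differed by 0.57 and 0.39, and Pcdh18 by -0.83. Restricting the cadherin list to genes with a mean of 20 TPM or more turned its median to -0.14, and it was 0.09 without old library 3. The Ctnnal1 values overlapped between the ages (difference 1.31).

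Of 34 tested genes of the primary cilium, the antenna of the cell for Hedgehog signals, and of that pathway, 23 were higher (median 0.46), with 3 above (8.82%, close to the background of 7.77%) and 1 below, the co-receptor Gas1. Bbs2, of the complex that carries membrane proteins into cilia, was at 29.8, 28.7 and 15.1 TPM in the young mice against 38.1, 72.4 and 96.0 TPM in old mice (1.41, 0.36 to 2.47). Ift172, of the intraflagellar transport train, was at 11.1, 16.1 and 32.1 TPM in the young mice against 33.9, 58.4 and 32.4 TPM in old mice, so that the ages all but touched. Kif3a, a motor of that train, differed by 0.92. The median of the list was 0.13, 0.25 and 0.24 without young libraries 1, 2 and 3, and 0.26 and 0.30 without old libraries 1 and 3.

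Hypoxia response genes had a median of 0.42 (0.24 without young library 1), with 15 of 22 higher, 3 above (13.6%) and 0 below. Ndrg1, a hypoxia-induced differentiation gene, was at 41.8, 58.95 and 39.8 TPM in the young mice against 84.0, 150 and 100.4 TPM in old mice (1.21, 0.42 to 2.01). Epas1, which encodes the oxygen-regulated factor HIF-2 alpha, was at 12.7, 15.2 and 13.5 TPM in the young mice against 18.9, 34.1 and 28.7 TPM in old mice. Both were highest in old library 2. The values of the oxygen sensor Egln2 overlapped between the ages, at 9.65, 0 and 0 TPM in the young mice against 20.7, 6.75 and 5.88 TPM in old mice.

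Nuclear hormone receptors and retinoid handling had 16 of 24 genes higher (median 0.35, and 0.56 and 0.23 without young libraries 2 and 3), 3 above (12.5%) and 1 below (4.17%). Besides the retinol receptor Stra6, the retinol dehydrogenase Rdh10, which makes the precursor of retinoic acid, was at 10.7, 10.9 and 17.8 TPM in the young mice against 31.6, 39.2 and 24.6 TPM in old mice (1.23, 0.21 to 2.24). Both retinol genes had all old libraries above all young ones. Tsc22d3, the glucocorticoid-induced leucine zipper, lay below, at 52.5, 78.3 and 55.97 TPM in the young mice against 43.8, 20.1 and 22.9 TPM in old mice (-1.14, -2.08 to -0.20).

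Histone acetylation genes and sirtuins had 22 of 31 higher (median 0.35, but 0.09 without young library 3), with 3 above (9.68%) and 2 below (6.45%). Both shares were close to those of all genes, 7.77% and 5.42%. Hdac1, a histone deacetylase, was at 25.04, 28.9 and 25.1 TPM in the young mice against 80.3, 47.2 and 34.1 TPM in old mice. Its middle-aged values of 7.42 and 19.07 TPM were below every young one. Hdac3 was at 8.54, 16.3 and 4.46 TPM in the young mice against 23.02, 21.6 and 21.5 TPM in old mice. The Hdac1 partner Sin3a lay below, at 49.9 to 100.5 TPM in the young mice against 28.2 to 48.8 TPM in old mice, and the values of Brpf3, a scaffold of acetyltransferase complexes, overlapped. In the nuclear lamina and pore list 19 of 34 were higher (median 0.29), with 4 above (11.8%) and 0 below. That median was 0.11 and 0.51 without young libraries 2 and 3, and 0.44 and -0.01 without old libraries 1 and 3. Syne2, which anchors the nucleus to the cytoskeleton, was at 16.8, 15.7 and 30.1 TPM in the young mice against 50.9, 53.5 and 57.8 TPM in old mice (1.39, 0.49 to 2.29). Lmna, encoding lamins A and C, was at 65.3, 72.7 and 53.02 TPM in the young mice against 130, 100.3 and 88.5 TPM in old mice (0.72, 0.02 to 1.43). Nup88 of the nuclear pore was at 60.5, 25.7 and 30.2 TPM in the young mice against 91.7, 62.2 and 62.1 TPM in old mice.

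Of 27 ion channel genes 16 were higher (median 0.35), with 5 above (18.5%) and 3 below (11.1%). The median was 0.23 without young library 3, 0.18 without old library 3 and 0.78 for genes with a mean of 20 TPM or more. Scn7a, a sodium channel that is also on the Schwann cell marker list, was at 16.9, 14.99 and 28.9 TPM in the young mice against 69.9, 48.9 and 60.1 TPM in old mice (1.55, 0.64 to 2.46). Kcna2, a potassium channel of myelinated axons, was at 6.19, 11.1 and 11.8 TPM in the young mice against 31.2, 61.3 and 28.8 TPM in old mice, highest in old library 2. Calcium release channels split. Itpr2, an inositol trisphosphate receptor, was higher in every old library at 50.95 to 70.0 TPM against 25.6 to 29.6 TPM in young. Ryr3, a ryanodine receptor, was lower in every old library at 1.60 to 5.90 TPM against 13.0 to 27.8 TPM. Kcnj8, a subunit of ATP-sensitive potassium channels and also a pericyte marker, was lower too, at 3.89 to 13.5 TPM against 21.1 to 27.8 TPM.

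Several other lists had medians near that of all genes. Hox and limb patterning genes (24 tested) and chromatin remodelers (42) had medians of 0.00, the unfolded protein response (31) 0.01 and cholesterol synthesis and uptake (23) -0.09. Farther away were, for example, cohesin and condensin (22) at -0.17 and the Bcl2 family and caspases (25) at 0.25. Among chromatin remodelers 0 genes lay above and 1 (2.38%) below, and for the unfolded protein response both counts were 0. In 2 further lists with flat or modest medians, single members stood apart, and they are named here after their values were seen. Of 22 circadian clock genes (median -0.08) 4 lay above (18.2%) and 2 below (9.09%). Bhlhe40, a repressor of clock genes, was at 138, 82.9 and 101 TPM in the young mice against 310, 208 and 232 TPM in old mice, and Nfil3 was at 5.74 to 22.7 TPM in the young mice against 27.6 to 39.8 TPM in old mice. Tef, which acts on the same D-box elements as Nfil3 with the opposite sign, was at 81.3, 175 and 85.9 TPM in the young mice against 58.2, 55.4 and 45.2 TPM in old mice.

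Of 26 Hippo pathway genes and YAP targets (median 0.22), 4 lay above (15.4%) and 0 below. Ctgf, a matricellular YAP target, was at 30.2, 21.9 and 19.1 TPM in the young mice against 149, 51.7 and 80.0 TPM in old mice. Ankrd1, another target, was at 11.7, 6.11 and 23.4 TPM in the young mice against 46.4, 57.4 and 48.3 TPM in old mice. The co-activator Wwtr1 (TAZ) had 36.7 to 40.1 TPM in the young mice against 51.5 to 61.4 TPM in old mice, a narrow separation with little spread in either age. Vgll2, a muscle cofactor of TEAD, was at 0, 0 and 7.21 TPM in the young mice against 20.6, 19.5 and 19.3 TPM in old mice. Among 49 translation factors 5 lay below (10.2%) and 2 above (4.08%); Eif6, which keeps new large ribosomal subunits from joining early, was at 3.87, 0 and 0 TPM in the young mice against 16.98, 20.5 and 20.7 TPM in old mice.

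The 2 middle-aged libraries did not take a uniform place between the ages. Of the 871 genes above in old mice, both middle-aged libraries were nearer the old mean for 328, both nearer the young mean for 180 and on different sides for 363. Of the 607 genes below, the corresponding counts were 172, 133 and 302. These genes were chosen on their young and old values, so the counts describe only where the middle-aged mice fell.

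Wells of 1 young mouse gave a view of how often the named genes were found in single cells. The 64 young wells had a median of 1854 genes at 1 TPM or more, and the 31 old wells a median of 64, so the ages were not compared in wells. At 1 TPM or more, 80.1% of the 11208 genes were found in at least 1 young well, with a median of 4 wells per gene. Npm1 was found in 52 of 64 wells, Lmna in 51, Ndrg1 and Gas1 in 33 and S100a6 in 30. Runx2 was found in 3, Apod in 2, Gatm in 1, and Stra6, Kcna2, Gldn and Csmd3 in 0 of 64, which allows a share of up to 4.69% of wells (3 of 64), counting error only. Of these, Apod had 35.9 to 188 TPM in the young bulk libraries and S100a6 37.0 to 160 TPM, with detection in 2 and 30 wells.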

How the data were processed

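The authors deposited TPM values for bulk libraries and for single-cell wells; alignment with STAR to mm10 is named in the submitters' processing notes, and no source used here gives the quantification tool, annotation or strandedness. Per the labels' protocols, RNA of 5000 to 10000 cells was amplified with a NuGEN Ovation kit and sequenced as single reads of 75 bases. TPM are shares of a library and keep no depth, so no counting interval applies to bulk values.

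Genes with an Ensembl identifier and a mean of at least 5 TPM over the 6 libraries were fitted on log2(TPM + 1) with limma 3.58.1 (R 4.3.3), an intensity trend and two-sided moderated tests, checked on simulated data. Benjamini-Hochberg adjustment covered all 11208 genes, with a threshold of 0.05. Positions and overlaps came from GENCODE vM21 (mm10), which held 42782 of 43283 identifiers, and 92 spike-ins and 2423 entries without an identifier were left out. Named genes were the 15 per direction with the smallest p (above 0 in all 6 libraries, no overlap), the 10 per direction with the largest difference at 20 TPM or more, and 3 per described list, usual marker, ribosomal protein, proteasome and respiratory chain genes aside; exceptions are stated. Of the lists, 1 is not reported here. The members and lists were chosen with earlier results of these data known. Python 3.11.15 with pandas 2.3.3 and matplotlib 3.10.9 was used. Other pseudocounts, filters, scalings, variance models, a replicate block and leaving out each library were tried.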

Additional observations from a re-analysis of the deposited data

How the results depend on the processing

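With a mean of 1 TPM or more, limma gave 815 genes higher and 525 lower at an unadjusted p under 0.05, and 1298 lay above and 939 below without overlap; with a mean of 20 TPM or more these counts were 203, 151, 355 and 263. With no filter they were 803, 492, 1358 and 945. No gene was called under the other alternatives, but 4 were called when the intensity trend was left out (Romo1, Gm2541, Gm15562 and Gm27227, each listed at 0 in all libraries of 1 age; smallest adjusted p 0.0382 in limma), and under the other alternatives the smallest adjusted p was 0.0642 to 0.643. Leaving out 1 library at a time, which makes separation easier by construction, gave 1191 to 1667 genes above, 818 to 1313 below, 351 to 665 higher and 243 to 394 lower at an unadjusted p under 0.05, with no gene called. The share above among all separated genes was 58.9%, 50.0% without old library 3 and 67.1% without old library 1. No named gene changed sign in 1316 values under 18 alternatives, and 50 of 683 list medians moved by more than the spread between libraries. With log2(TPM + 5) or quantile normalization, the medians were 0.13 and 0.13 for nuclear lamina and pore, 0.23 and 0.23 for cadherins and 0.22 and 0.21 for the cilium list. Same-numbered libraries did not deviate together (r = 0, 0.003 and -0.027 over genes, old against young). With the number as a replicate block, the fit called 0 genes and counted 494 higher and 340 lower. The precision rests on 3 mice per age; the read depth of each library is unknown.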
